A study of Mus musculus with 12 samples.

Results

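The 10 core circadian clock genes Arntl, Clock, Per1, Per2, Per3, Cry1, Cry2, Nr1d1, Nr1d2 and Dbp were followed in hair follicle stem cells (HFSCs) sorted from mouse back skin. They were chosen by symbol, and all 10 were found among the 17885 genes of the Eed iKO table and the 21915 genes of the hair cycle table. All 10 also passed the filter on low values, which left 15008 and 13457 genes for testing. The study sequenced 12 libraries, 3 in each of 4 groups, from C57BL/6J mice, with both sexes used in the study. The sort kept EpCAM+ and CD34+ cells with high α6-integrin that were Sca1-. The control and Eed iKO groups were sorted at postnatal day 70. Eed iKO mice carry K15-CrePGR and Eed fl/fl, so that a Cre recombinase driven by a keratin 15 promoter removes Eed, a core subunit of the Polycomb repressive complex PRC2, once RU-486 activates it. RU-486 at 10 mg/ml was put on shaved back skin daily for 7 days. Control mice, labelled wildtype, received ethanol without RU-486, and RU-486 itself blocks the progesterone and glucocorticoid receptors, so allele and drug cannot be told apart in this comparison. The anagen (growth) group was wildtype at postnatal day 28 to 30 and the telogen (rest) group wildtype at postnatal day 50 to 52, so stage and age cannot be told apart. The hour of the day at which skin was collected, on which clock gene levels depend, is not given in the sources used here.

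The mammalian clock is a feedback loop of transcription. BMAL1, the protein of Arntl, pairs with CLOCK on E-box sequences and switches on the Per and Cry genes, whose proteins return to the nucleus and block the pair. In a linked loop, BMAL1 and CLOCK also switch on Nr1d1 and Nr1d2, which encode the receptors REV-ERBα and REV-ERBβ, and these repress Arntl at ROR elements, where ROR receptors activate it. Dbp, a direct target of BMAL1 and CLOCK, encodes a factor that acts on D-box sequences, among them those of Per genes. In a rhythmic tissue, Arntl transcripts therefore peak when Nr1d1 and Dbp transcripts are low. The clock runs in skin, and clock genes are known to vary between hair follicles and between stem cells of a single bulge.

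Values are the authors' normalized counts, and the tables were normalized separately. Control and Eed iKO values behaved as counts divided by a size factor for each library, while the scaling of the hair cycle values could not be checked. Recovered reads numbered 33269583 to 57063586 per control or Eed iKO library, and no depth could be had for anagen and telogen. The gating genes were found in all libraries, and Ly6a, which encodes the Sca1 protein gated out, had at most 170.5 normalized counts. Eed itself measured 1099 ± 229.9 in Eed iKO and 1095 ± 149.6 in control (SD, n = 3, limma adjusted p = 0.993). A loss of its mRNA was thus not seen in these counts, and these groups are named by their labels. By other measures, the paper reports less Eed mRNA in sorted Eed iKO HFSCs (RT-qPCR). It also reports loss of H3K27me3, the histone mark made by PRC2 (immunofluorescence). In sorted pools, fewer cells that express a gene and less RNA per cell cannot be told apart.

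Levels were first set in order within each group as normalized counts per kilobase of the longest coding transcript, with ± giving the SD of 3 libraries. Whether the hair cycle values already held a scaling by length could not be checked, so the telogen and anagen orders hold only if they did not. In telogen, Cry2 stood at 585 ± 280.1, Nr1d1 at 526 ± 105 and Nr1d2 at 382 ± 88.1, and the libraries of these 3 neighbours in the order overlapped. Clock (218 ± 40.4), Dbp (217 ± 78.2), Per1 (151 ± 82.6) and Arntl (141 ± 57.9) formed a lower tier that also overlapped from neighbour to neighbour. Cry1 (67.5 ± 34.1) and Per3 (45.0 ± 2.20) overlapped below it. Per2 was lowest at 5.52 ± 1.11, with no library reaching Per3. In anagen, Cry2 (347 ± 31.7) and Nr1d2 (328 ± 22.1) came first and overlapped. Clock (231 ± 16.0) followed, and Nr1d1 (160.2 ± 7.51) came after it, below Clock in every library. Per1 (89.2 ± 27.9), Dbp (84.2 ± 61.6), Arntl (69.9 ± 3.82) and Cry1 (60.8 ± 20.1) overlapped from neighbour to neighbour. Per3 (18.9 ± 0.775) and Per2 (15.3 ± 14.6) overlapped at the bottom of the order.

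At postnatal day 70 the order was headed by Nr1d1 and Per1. In control, the level per kilobase was 5566 ± 476 for Nr1d1, 3154 ± 869.5 for Per1 and 1414 ± 211 for Cry2, and the libraries of these neighbours did not overlap. Nr1d2 (831 ± 148), Clock (766 ± 148) and Arntl (749 ± 186) overlapped, Dbp (463 ± 169) lay below them, and Per3 (184 ± 17.7), Per2 (111 ± 94.3) and Cry1 (97.4 ± 33.1) closed the order. In the libraries labelled Eed iKO, Nr1d1 (3734 ± 891) and Per1 (2322 ± 432) again came first, now with overlapping libraries, ahead of Cry2 (1371 ± 311). Arntl (709 ± 115), Dbp (695 ± 301), Clock (693 ± 80.8) and Nr1d2 (649 ± 80.3) could not be ranked beyond their spread. The same was true of Cry1 (151 ± 74.8), Per3 (147 ± 58.6) and Per2 (138 ± 70.1).

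The comparison of anagen with telogen asks how HFSCs differ between growth and rest. Transcripts of 2 of the 10 clock genes, Nr1d1 and Per3, differed at an adjusted p under 0.05 (limma with Benjamini-Hochberg adjustment over all genes tested), and both were lower in anagen. Nr1d1 was 3.24-fold and Per3 2.37-fold lower on the scale of log2(normalized count + 1). Of all genes tested, 11.6% passed this test in either direction and 4.35% were higher in telogen. No clock gene passed the thresholds of the methods, an absolute log2 fold change above 2 with an unadjusted p under 0.05, which 5.1% of all genes passed. At an unadjusted p under 0.05 alone, 4 of the 10 passed (Nr1d1, Per3, Dbp and Arntl, all lower in anagen), beside 27.3% of all genes. Of the 10 log2 fold changes, 8 were below 0, with a median of -0.64 beside 0.01 for all genes tested.

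**Figure D1:**
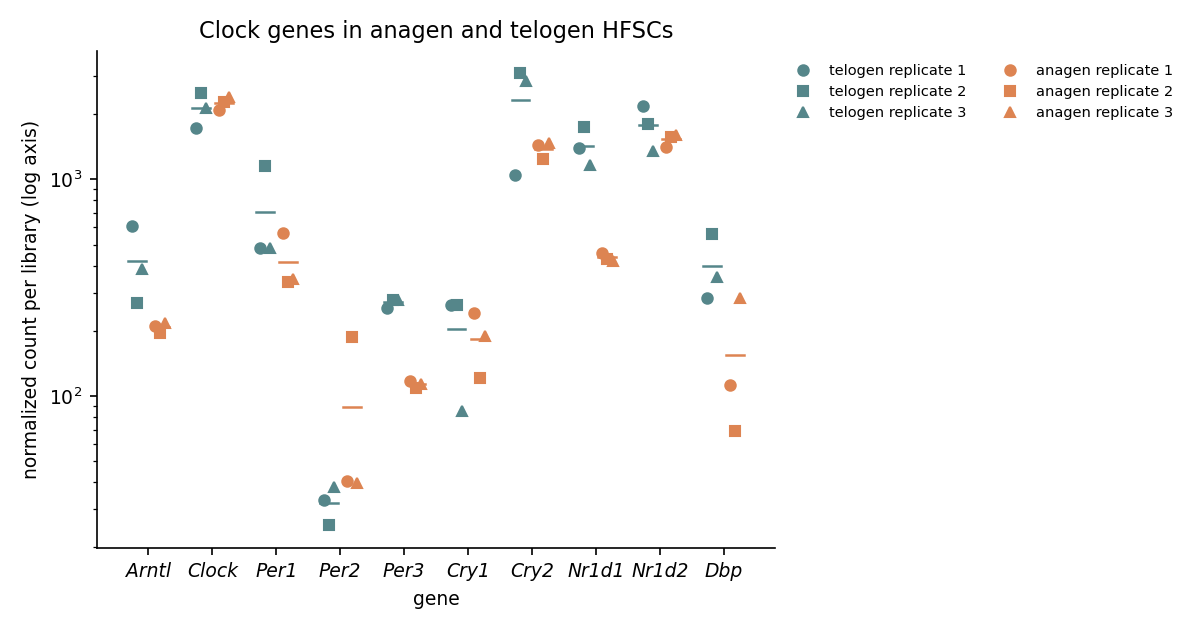
Normalized counts of the 10 clock genes in each telogen and anagen library on a log axis, with a marker for each replicate and a line at the group mean. Nr1d1 and Per3 form separate, tight groups, while the anagen libraries of Dbp and the telogen libraries of Cry2 are spread widely.

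Among the receptors of the linked loop, Nr1d1 (ENSMUSG00000020889.11, chromosome 11 from 98767932 to 98775333, minus strand, GRCm38) gave the clearest difference. Its normalized counts were 1389, 1736 and 1167 in telogen replicates 1, 2 and 3, against 459, 428 and 421 in anagen replicates 1, 2 and 3. The highest anagen library thus lay far below the lowest telogen library. The log2 fold change was -1.69 (SE 0.22, adjusted p = 8.95e-04 from limma). It stayed past the threshold in all 11 alternatives tried, which included each library left out in turn, with an adjusted p of at most 0.015. Of the 3077 exon bases of Nr1d1, 263 are shared with the 3′ part of Thra, a thyroid hormone receptor gene on the opposite strand, and counting by strand is not stated, so reads from these bases cannot be told apart. Thra had 1404, 815 and 855 normalized counts in telogen against 297, 338 and 473 in anagen, also lower in anagen (log2 fold change -1.45, SE 0.28, limma adjusted p = 0.00864). Nr1d2, the paralog of Nr1d1 with the same repressive role, had 2179, 1810.1 and 1359 normalized counts in telogen against 1412, 1571 and 1606 in anagen. Its groups overlapped and its log2 fold change was -0.20 (95% confidence interval -0.67 to 0.28, limma adjusted p = 0.594), and -0.038 without telogen replicate 1.

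The 3 Period genes, whose proteins carry the negative feedback, gave different pictures. Per3 (ENSMUSG00000028957.12, chromosome 4 from 151003652 to 151044665, minus strand) had 255, 278 and 277 normalized counts in telogen against 118, 109 and 114 in anagen. All telogen libraries lay above all anagen libraries, and the pooled SD within groups was only 0.0654 on the log2 scale, beside a median of 0.426 for all genes tested. Per3 had a log2 fold change of -1.24 (SE 0.30, limma adjusted p = 0.0233), with an SE that draws on the spread of other genes of like level. Its size hardly moved when a library was left out (-1.29 to -1.21), but the adjusted p then reached 0.0827, 0.0942 and 0.0696 without anagen replicate 1, 2 or 3 and 0.0538 without telogen replicate 3. Per1 had 482, 1150.2 and 483 normalized counts in telogen against 567, 337 and 347 in anagen, so that a single telogen library was high and the groups overlapped (log2 fold change -0.67, 95% confidence interval -1.47 to 0.13, limma adjusted p = 0.26, and -0.25 without telogen replicate 2). Per2 was near the bottom of the range, with 33.2, 25.3 and 38.1 normalized counts in telogen against 40.4, 188 and 39.7 in anagen. No anagen library fell under the highest telogen library, but anagen replicate 2 alone was far above the rest. Per2 had a log2 fold change of 1.06 (95% confidence interval -0.34 to 2.46, limma adjusted p = 0.311), and 0.32 without that library.

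Of the genes that drive the loop, Arntl (ENSMUSG00000055116.8, chromosome 7 from 113207465 to 113314126, plus strand) had 608, 269 and 385 normalized counts in telogen against 210.5, 196 and 218 in anagen. The telogen libraries were all higher and differed more among themselves than the anagen libraries. The log2 fold change was -0.93 (SE 0.33, limma adjusted p = 0.0934), and the adjusted p ranged from 0.0359, without telogen replicate 2, to 0.231 over the alternatives. Its partner Clock (chromosome 5 from 76209868 to 76304792) was the steadiest of the pair, with 1719, 2506 and 2146 normalized counts in telogen against 2085, 2279.8 and 2394 in anagen. Clock differed by 0.10 on the log2 scale, with a 95% confidence interval of -0.33 to 0.53 (limma adjusted p = 0.782), and its sign turned to -0.04 without telogen replicate 1.

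The Cryptochromes, which bind the BMAL1 and CLOCK pair as repressors, did not pass the test. Cry1 had 264, 263 and 85.0 normalized counts in telogen against 242, 121 and 189 in anagen. Each group held a low library, and the log2 fold change was -0.03 (95% confidence interval -1.07 to 1.01, limma adjusted p = 0.972). Cry2 had 1049, 3085 and 2848 normalized counts in telogen against 1433, 1237 and 1473 in anagen. Telogen replicate 1 lay below all anagen libraries while the other 2 telogen libraries lay well above them. The log2 fold change of Cry2 was -0.61 (SE 0.35, limma adjusted p = 0.291), and it was -1.11 with an adjusted p of 0.0035 without telogen replicate 1, where the other alternatives gave up to 0.589.

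Dbp (ENSMUSG00000059824.12, chromosome 7 from 45705088 to 45710203, plus strand), the output factor of the loop, had 283, 559 and 354 normalized counts in telogen against 113, 68.6 and 283 in anagen. Anagen replicate 3 lay just under the lowest telogen library and the other 2 anagen libraries lay far below it. This gave a log2 fold change of -1.55 (SE 0.48, limma adjusted p = 0.0621). The adjusted p ranged from 0.0207, without anagen replicate 3, to 0.211 over the alternatives. The exons of Dbp share 539 of 2993 bases with Sphk2 on the opposite strand. Counting all 10 genes, the telogen and anagen libraries did not overlap for 5 (Nr1d1, Per3, Dbp and Arntl lower and Per2 higher in anagen), beside 33.3% of all genes tested.

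**Figure D2:**
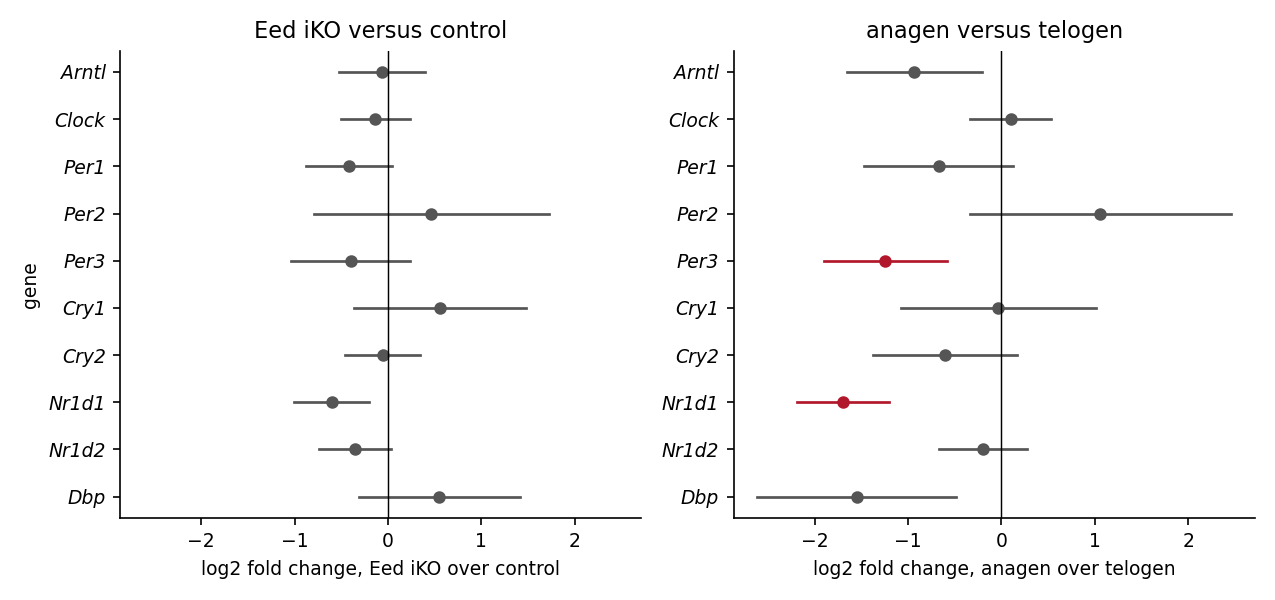
Log2 fold changes of the 10 clock genes with 95% confidence intervals from limma, Eed iKO over control on the left and anagen over telogen on the right, in red where the adjusted p is under 0.05. Only Nr1d1 (-1.69) and Per3 (-1.24) in the hair cycle comparison are red, and Per2 has the widest interval in both panels.

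The sequences before the transcription start of Nr1d1 and Per3, the clock genes that passed the test, are shown because the known control elements of the clock lie in such regions. RefSeq promoter windows of 300 bases (GRCm38.p6) were found for 9 of the 10 clock genes and not for Per2. They were searched on both strands for the E-box CACGTG, the D-box TTATGTAA or TTACGTAA, the ROR element TAGGTCA and the cAMP element TGACGTCA. The stretches below are the 250 bases before the start, 5′ to 3′ on the strand of the gene, at chr11:98775378-98775627 for Nr1d1 and chr4:151044666-151044915 for Per3. Capitals mark the matches.
Nr1d1: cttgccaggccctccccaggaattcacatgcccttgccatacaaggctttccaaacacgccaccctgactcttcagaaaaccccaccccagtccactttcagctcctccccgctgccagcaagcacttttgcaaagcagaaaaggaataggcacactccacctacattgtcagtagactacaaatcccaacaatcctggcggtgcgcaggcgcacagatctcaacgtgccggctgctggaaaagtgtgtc
Per3: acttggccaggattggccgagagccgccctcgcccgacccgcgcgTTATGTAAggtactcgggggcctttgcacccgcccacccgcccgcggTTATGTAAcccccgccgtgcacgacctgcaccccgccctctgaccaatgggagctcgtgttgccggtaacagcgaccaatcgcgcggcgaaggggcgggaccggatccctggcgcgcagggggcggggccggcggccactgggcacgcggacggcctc
Per3 held 2 matches to the D-box, the motif bound by DBP, TEF and HLF, starting 205 and 158 bases before the start. A D-box was found in 1.06% of 32851 promoter windows, and 2 or more in 0.0244%. Nr1d1 held none of the 4 motifs in its window. The RefSeq start used for Nr1d1 lies upstream of the GENCODE start of the gene, at 98775333 on the minus strand. Among the other clock genes, the Cry1 window held an E-box starting 60 bases before the start and 1 of the 2 Per1 windows held an E-box starting 166 bases before it, where 7.15% of all windows hold an E-box. One Arntl window held a ROR element within the transcribed part, beside 2.61% of all windows, and no window of the clock genes held the cAMP element, found in 1.79% of all windows. Clock, Cry2, Nr1d2 and Dbp had no match to any of the motifs in their windows. A match is a run of letters and not a measured binding site, and elements outside these windows were not searched.

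Beyond these 10, the pathway was followed in 25 other genes, comprising paralogs, ROR receptors, PAR bZIP factors, further repressors, clock kinases and ubiquitin ligases, and textbook output genes. Between anagen and telogen, 2 were higher in anagen and 2 lower at an adjusted p under 0.05 (limma), where 7.22% and 4.35% of all genes tested were called in these directions. The median log2 fold change of the 25 was 0.02. Tef, which encodes a PAR bZIP factor that binds the same D-box as DBP, had 2438, 3253 and 2023 normalized counts in telogen against 384, 571 and 379 in anagen. Every anagen library lay far below every telogen library, with a log2 fold change of -2.53 (SE 0.25, limma adjusted p = 1.44e-04), which also passed the thresholds of the methods. The other 3 genes of its list, Dbp among them, did not pass at the adjusted p. Arntl2, the paralog of Arntl, had 626, 550.0 and 352 normalized counts in telogen against 185, 204 and 195 in anagen. Its groups did not overlap and the log2 fold change was -1.34 (SE 0.29, limma adjusted p = 0.0144), with adjusted p of 0.0692, 0.056 and 0.0519 without anagen replicate 1, 2 or 3.

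Bhlhe40 and Wee1 were the pathway genes higher in anagen. Bhlhe40, a repressor that competes with BMAL1 and CLOCK at E-boxes, had 185, 365 and 187 normalized counts in telogen against 1124, 1022 and 797 in anagen (log2 fold change 2.06, SE 0.31, limma adjusted p = 0.00202), and it too passed the thresholds of the methods. Wee1, a kinase that restrains entry into mitosis and a known clock output in liver, had 218, 136 and 153 normalized counts in telogen against 680.2, 475 and 432 in anagen (log2 fold change 1.64, SE 0.31, limma adjusted p = 0.00667). Its adjusted p was 0.0545 without anagen replicate 1. Wee1 moved beside the genes of proliferation, of which all 10 listed were higher in anagen at an adjusted p under 0.05, and whose summed normalized counts were 22683 to 36731 in anagen and 2219.96 to 3529 in telogen. The part of cell division in the difference of Wee1 was not tested. Of the 7 kinases and ubiquitin ligases that set the stability of PER and CRY proteins, none passed at the adjusted p in limma, and 2 had an unadjusted p under 0.05, a share near the 27.3% of all genes (Gsk3b 0.60 and Btrc -0.78, log2 fold changes named after their values were seen).

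**Figure D3:**
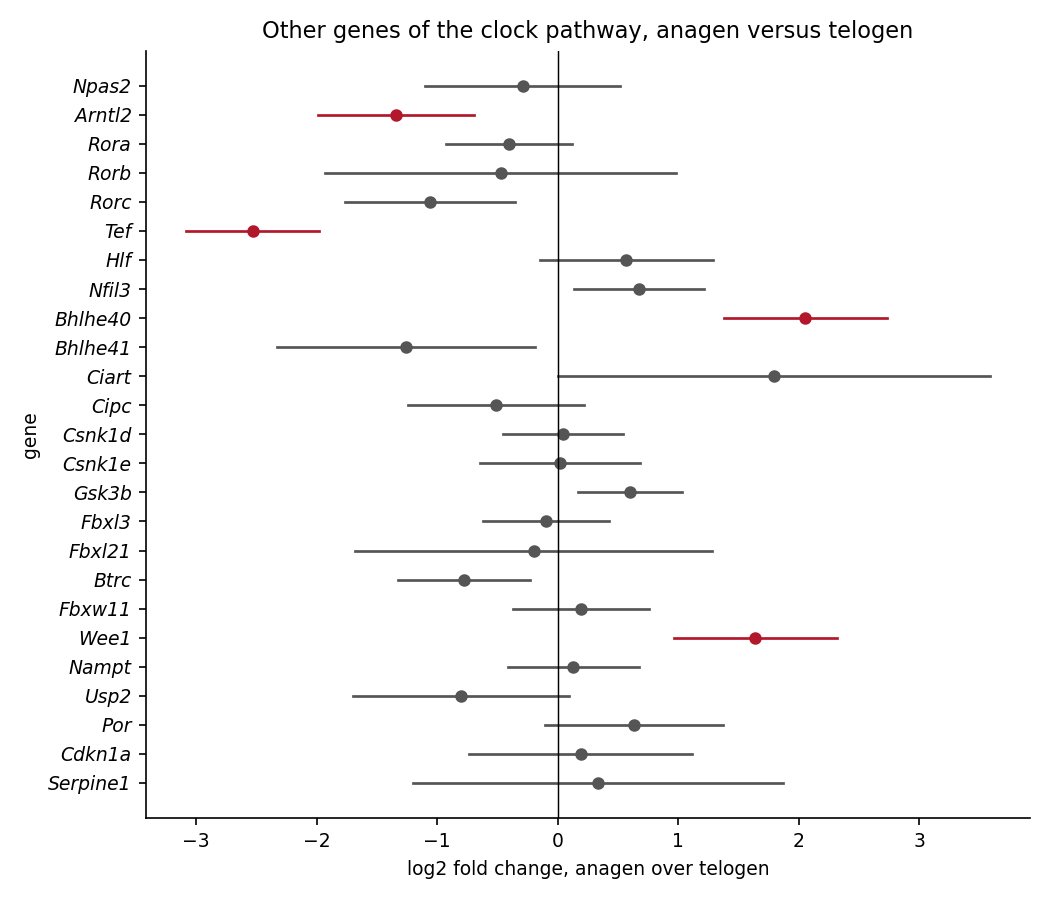
Log2 fold changes, anagen over telogen, with 95% confidence intervals from limma for the 25 other genes of the clock pathway, in red where the adjusted p is under 0.05. Tef (-2.53) and Arntl2 (-1.34) lie to the left and Bhlhe40 (2.06) and Wee1 (1.64) to the right.

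Markers of other cells and states moved with these groups. Of 10 immediate early genes, which respond to handling and to growth signals, 3 were higher in anagen at an adjusted p under 0.05 (Fos, Ier2 and Btg2), beside 7.22% of all genes, and the summed level of the list was 57552 to 62835 in anagen and 19068.5 to 76219.6 in telogen, lowest in telogen replicate 3. The summed level of 5 melanocyte markers was 437 to 803 in anagen and 81.3 to 159.6 in telogen, with Dct the 1 gene that passed the test. That of 6 fibroblast markers was 469 to 628 in anagen and 316 to 649 in telogen. Among them, 2 of 4 tested (Col1a1 and Dcn) were higher in anagen at an adjusted p under 0.05, again beside 7.22% of all genes. The others tested were lower in anagen and did not pass. Their log2 fold changes were -0.997 for Col1a2, without overlap, and -1.02 for Pdgfra, with overlap (limma adjusted p = 0.108 and 0.586). Of the sorting markers, Cd34 was lower in anagen (2955, 3233 and 4144 normalized counts against 6433, 9159 and 8295 in telogen, log2 fold change -1.21, limma adjusted p = 0.00382) and Itga6, which encodes α6-integrin, was higher (log2 fold change 0.97, limma adjusted p = 0.0144). The summed level of 10 bulge stem cell markers was 236501, 626709 and 531510 in telogen replicates 1, 2 and 3. It was 551501 to 663758 in anagen. Telogen replicate 1, the library that decided the call of Cry2, was thus lowest of the 6 in this sum. Its largest terms there were Krt15 (142406) and Krt5 (50461). Krt15, Krt5, Krt14, Itga6 and Sox9 were lowest of the 6 libraries in telogen replicate 1, while Lhx2 and Epcam were highest. Cd34, Nfatc1 and Lgr5 lay between. Of 5 markers of differentiated keratinocytes, 1 was higher in anagen (Flg, log2 fold change 2.82, limma adjusted p = 6.82e-04), while their summed level overlapped, with 4495 to 13226 in anagen and 7661 to 15272 in telogen. The others went both ways and did not pass. Their log2 fold changes were -0.46 (Krt1), -0.40 (Krt10), 0.40 (Ivl) and 1.15 (Lor), with limma adjusted p from 0.188 to 0.736. Immune markers (134.7 to 151.3 in anagen and 156 to 432 in telogen), endothelial markers (76.5 to 157 over both groups) and muscle markers (18.4 to 54.0) held no gene past the adjusted p in limma, nor one at an unadjusted p under 0.05. Melanocyte markers made up at most 0.00618% and fibroblast markers at most 0.00495% of all normalized counts in a library. Their part in the clock gene differences was not tested.

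The comparison of Eed iKO with control asks which transcripts differ between the groups so labelled, where allele and drug cannot be told apart. No clock gene passed an adjusted p under 0.05 in limma, nor in edgeR or DESeq2 on recovered whole reads, and only 4 of all genes tested (0.0267%) passed in limma. None passed the thresholds of the methods, here an absolute log2 fold change above 1.5 with an unadjusted p under 0.05, beside 1.75% of all genes. At an unadjusted p under 0.05, 1 of the 10 passed, Nr1d1, beside 14.7% of all genes. Nr1d1 was also the 1 clock gene whose groups of libraries did not overlap, beside 20.2% of all genes. Of the log2 fold changes, 3 were above 0 and 7 below, with a median of -0.10 beside 0.00 for all genes tested.

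**Figure D4:**
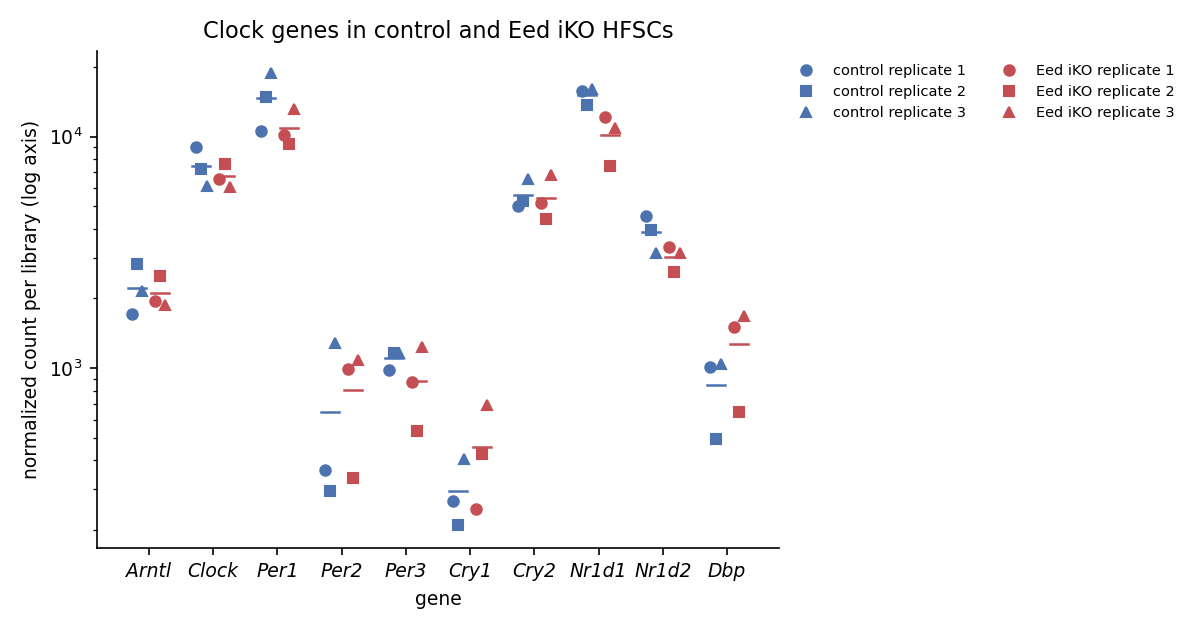
Normalized counts of the 10 clock genes in each control and Eed iKO library on a log axis, with a marker for each replicate and a line at the group mean. Nr1d1 is the 1 gene whose groups are apart, and Per2, Cry1 and Dbp spread widely within both groups.

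The 3 control libraries held 15759, 13657 and 16016 normalized counts of Nr1d1, against 12114, 7449 and 10920.5 in replicates 1, 2 and 3 labelled Eed iKO. The lowest control library lay above the highest Eed iKO library, with Eed iKO replicate 2 lowest. The log2 fold change was -0.60 (SE 0.18, unadjusted p = 0.00732 and adjusted p = 0.169 from limma), or 1.52-fold lower, and -0.39 without Eed iKO replicate 2. Its antisense neighbour Thra had 7682, 6813 and 7442 normalized counts in control and 6391, 5505 and 7210.1 in Eed iKO (log2 fold change -0.21, limma adjusted p = 0.53). Nr1d2 had 4520, 3960.2 and 3149.9 normalized counts in control and 3328, 2607 and 3142 in Eed iKO. Control replicate 3 was close to the highest Eed iKO libraries, and the log2 fold change was -0.35 (95% confidence interval -0.73 to 0.04, limma adjusted p = 0.378).

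Per1 had 10611, 14846.5 and 18732 normalized counts in control and 10149, 9264 and 13117 in Eed iKO (log2 fold change -0.42, 95% confidence interval -0.88 to 0.04, limma adjusted p = 0.378). Per2 had 363, 295 and 1279 normalized counts in control and 995, 335 and 1083 in Eed iKO, with a high and a low library in each group (0.46, 95% confidence interval -0.79 to 1.72, limma adjusted p = 0.753). Per1 and Per2 are clock genes that outside signals can also switch on at once. Both were highest within their group in replicate 3 of control and of Eed iKO, and so were Cry1, Cry2 and Dbp. The other clock genes were not highest in both of these libraries. In the same libraries the summed level of the 10 immediate early genes was 1599800 in control replicate 3 and 1476720 in Eed iKO replicate 3, beside 651691 to 855437 in the other 4 libraries. The summed level of the 5 differentiated keratinocyte markers was likewise 39969.8 and 57647 in these libraries and 4515 to 13446 in the other 4. The part of these genes in the clock gene levels was not tested. Per3 had 984, 1169 and 1166 normalized counts in control and 874, 537 and 1239.8 in Eed iKO, overlapping and more spread in the second group (log2 fold change -0.40, 95% confidence interval -1.04 to 0.23, limma adjusted p = 0.543). The value for Per3 was -0.083 without Eed iKO replicate 2 and -0.69 without Eed iKO replicate 3. That for Per2 ran from 0.063 without control replicate 2 to 1.12 without control replicate 3, and that for Per1 from -0.64 without control replicate 1 to -0.23 without control replicate 3.

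The remaining members were level or widely spread. Arntl had 1719, 2816 and 2153 normalized counts in control and 1948, 2502 and 1877 in Eed iKO, with a log2 fold change of -0.06 (95% confidence interval -0.52 to 0.40, limma adjusted p = 0.919). Clock had 9000.5, 7269 and 6129 normalized counts in control and 6587, 7604 and 6055 in Eed iKO (log2 fold change -0.13, 95% confidence interval -0.50 to 0.23, limma adjusted p = 0.757). The groups overlapped for both genes. Cry2 had 5032, 5246 and 6582 normalized counts in control and 5155, 4388 and 6807 in Eed iKO, with a log2 fold change of -0.06 (95% confidence interval -0.46 to 0.35, limma adjusted p = 0.914). Cry1 had 268, 210.1 and 405 normalized counts in control and 246, 428 and 696 in Eed iKO, with a log2 fold change of 0.56 (95% confidence interval -0.36 to 1.48, limma adjusted p = 0.565). Dbp had 1014, 493 and 1045 normalized counts in control and 1512, 645 and 1675 in Eed iKO, with a log2 fold change of 0.55 (95% confidence interval -0.31 to 1.41, limma adjusted p = 0.541). In both groups replicate 2 was the low library of Dbp, and its log2 fold change was 0.19 without control replicate 2 and 0.98 without Eed iKO replicate 2. For Cry1 it was 0.19 when Eed iKO replicate 3 was left out and 0.94 when Eed iKO replicate 1 was.

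Of the 25 other pathway genes, none passed at an adjusted p under 0.05 in limma or edgeR, and 1, Npas2, passed in DESeq2 (adjusted p = 0.0378), a tool that called 4.48% of all genes. At an unadjusted p under 0.05, 3 of the 25 passed in limma, all lower in Eed iKO, which is no more than the 14.7% of all genes that did. They are named, after their values were seen, to show which they are. Npas2, a paralog of Clock that can also pair with BMAL1, had 3724, 4032 and 3053 normalized counts in control and 2364, 2173 and 2684 in Eed iKO, without overlap (log2 fold change -0.58, SE 0.16, limma adjusted p = 0.148). Over all alternatives its adjusted p lay between 0.0378 and 0.475. Fbxw11, which encodes an F-box protein that targets PER for breakdown, had a log2 fold change of -0.43 (limma adjusted p = 0.228), again without overlap, and Gsk3b one of -0.38. Tef, the pathway gene with the greatest difference between telogen and anagen among those that passed, had 5170.1, 5352 and 8144 normalized counts in control and 7773, 5384 and 11293 in Eed iKO, overlapping (log2 fold change 0.36, limma adjusted p = 0.551). The summed level of the 10 proliferation genes was 6475 to 8558 in control, and 16575, 17504 and 7281 in Eed iKO replicates 1, 2 and 3.

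No marker of another cell type passed an adjusted p under 0.05 in limma between Eed iKO and control. Immune and Langerhans cell markers summed to 248 to 462 normalized counts in control and 386 to 809.7 in Eed iKO, with 2 of 6 tested past the thresholds of the methods (Cd207 and H2-Ab1), beside 1.75% of all genes. The others tested did not follow them. Log2 fold changes were 0.33 for Ptprc, 0.36 for Cd74, -0.25 for H2-Aa and -0.48 for Cd3e (limma adjusted p from 0.815 to 0.889). Cd207, which marks Langerhans cells, was 0 in all control libraries and 18.3, 13.3 and 23.7 in Eed iKO, and Lyz2 was 0 in all control libraries and 55.9, 65.1 and 0 in Eed iKO, below the filter for testing. Melanocyte markers summed to 279 to 503 in control and 327 to 536 in Eed iKO, with 1 of 4 tested (Tyrp1) past the thresholds. Tyrp1 was near the floor, with 0, 6.5 and 0 normalized counts in control and 17.2, 25.2 and 16.8 in Eed iKO. The other melanocyte markers tested had log2 fold changes of -0.21 (Dct), 0.42 (Pmel) and 0.81 (Tyr), with limma adjusted p from 0.713 to 0.858. Fibroblast markers summed to 1688 to 3279 in control and 1293 to 1929.8 in Eed iKO, and Col1a1 had a log2 fold change of -1.48 (limma adjusted p = 0.228). The other fibroblast markers tested had log2 fold changes of -0.49 (Col1a2), 0.045 (Pdgfra) and 0.34 (Dcn), with limma adjusted p from 0.386 to 0.984. Differentiated keratinocyte markers spread from 8679.8 to 39969.8 in control and from 4515 to 57647 in Eed iKO, with Flg past the thresholds (-1.51). The other keratinocyte markers had log2 fold changes of -0.48 (Krt1), 0.21 (Krt10), -0.59 (Ivl) and -0.75 (Lor), with limma adjusted p from 0.427 to 0.932. Endothelial markers summed to 356 to 687 and muscle markers to 49.5 to 124 over both groups, with no gene at an unadjusted p under 0.05. The part of these cells in the clock gene values was not tested.

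Libraries of a single group differed among themselves in ways that are large for some clock genes and small for others. The pooled SD within groups on the log2 scale was highest for Per2 (1.05 over control and Eed iKO and 0.92 over anagen and telogen), followed by Dbp (0.69 and 0.81) and Cry1 (0.63 and 0.75). The medians over all genes tested were 0.34 and 0.43. Clock (0.23 and 0.21), Nr1d1 (0.28 and 0.21) and Nr1d2 (0.23 and 0.25) lay below these medians in both tables. Arntl and Dbp, which stand at opposite phases of the cycle in rhythmic tissues, were set side by side in each library as the ratio of their normalized counts. The ratio of Arntl to Dbp was 1.70, 5.71 and 2.06 in replicates 1, 2 and 3 of control, and 1.29, 3.88 and 1.12 in those labelled Eed iKO. In both groups, replicate 2 held the highest Arntl and the lowest Dbp. In telogen the ratio was 2.15, 0.481 and 1.09, with replicate 1 highest for Arntl and lowest for Dbp and replicate 2 the reverse. Telogen replicate 2 was the highest of its group for Clock, Per1, Per3, Cry2, Nr1d1 and Dbp, replicate 1 for Arntl, Cry1 and Nr1d2, and replicate 3 for Per2. In anagen the ratio was 1.87, 2.85 and 0.77 and was set by Dbp, since Arntl was almost level. These values describe single libraries, and no test was made of their order.

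**Figure D5:**
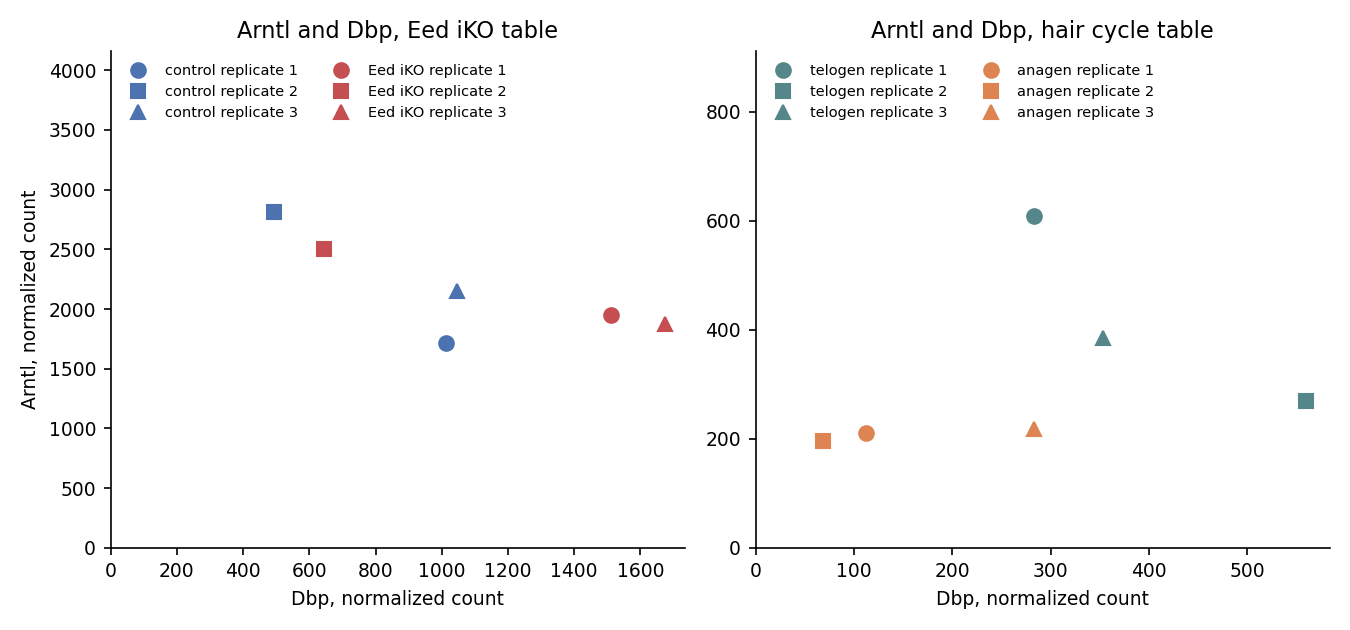
Normalized counts of Arntl against Dbp in each library, for the Eed iKO table on the left and the hair cycle table on the right, with linear axes from 0. Replicate 2 of control and of Eed iKO stand at the upper left, the 3 telogen libraries step down from upper left to lower right, and the 3 anagen libraries lie along the bottom between 196 and 218 for Arntl.

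The genes most like Arntl and Dbp over the 6 libraries of each table were found as those with the highest Pearson correlation of log2 values, which share libraries and scaling and are given as a description. In the hair cycle table, Arntl was followed most closely by Mllt3 (r = 0.999), Stk38 (0.998), Mnd1 (0.995), Dcaf17 (0.993) and Gpsm2 (0.992). Dbp was followed there by Naaladl2 (r = 0.986), Acot1 (0.981), Fam161a (0.981), Zfp239 (0.979) and Ankub1 (0.976). In the Eed iKO table, Olfr1100 (r = 0.988), Tnk1 (0.986), Porcn (0.986), Celsr2 (0.98) and Prrc2c (0.98) came closest to Arntl. Ntn4 (r = 0.993), Gde1 (0.986), Prickle3 (0.984), Aldh16a1 (0.978) and Eva1c (0.973) came closest to Dbp. With 6 libraries such values are reached by many genes, and 19 to 103 genes had an r above 0.95 for each of the 4 pairings of gene and table. No gene was among the closest 5 in both tables for either reference.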

How the data were processed

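HFSCs from back skin of the 4 groups were profiled by RNA-seq, with cDNA amplified by the Ovation RNA-seq System V2. The authors aligned reads to GENCODE vM20 transcripts (mm10) with kallisto 0.42.5 and compared groups with DESeq2. The deposited values are a signal, namely counts that the authors normalized, called normalized counts here. The deposited columns of fold changes and p-values were not used, and no other per-sample column was left out (0). In the control and Eed iKO libraries 100% of values were whole multiples of 1 step per library (tolerance 0.01), which gave back the reads. The hair cycle values are not such multiples, so how they were scaled could not be checked in this way.

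Groups and replicate numbers came from the labels. The clock genes, pathway lists and tests were chosen with earlier results of these data known. Since the values are normalized, limma (3.58.1, R 4.3.3) with an intensity trend was fitted within each table to log2(normalized count + 1) over genes passing filterByExpr of edgeR (4.0.16) at a count minimum of 10, with Benjamini-Hochberg adjustment. edgeR and DESeq2 (1.42.0) on recovered reads were alternatives, beside a pseudocount of 0.1, no filter, TMM scaling, no trend, the replicate number as a block and each library left out. The limma fit with and without the replicate block, edgeR with TMM and DESeq2 were tested on simulated data. The p-values rest on the spread between 3 libraries per group, which limma draws towards that of other genes of like level. Genes named are the 10 clock genes, pathway genes with an adjusted p under 0.05 or past the thresholds of the methods, and the 5 tested genes most correlated with Arntl and with Dbp. Thra, as the neighbour of Nr1d1, pathway genes past only an unadjusted p, and marker genes of other cells or states are named outside this rule, after their values were seen. Identifiers (17879 of 17885 and 21915 of 21915) were matched to GENCODE vM21 (GRCm38) for coordinates, lengths and exon overlaps. Promoter windows came from RefSeq (GRCm38.p6).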

Additional observations from a re-analysis of the deposited data

How the results depend on the processing

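No clock gene passed in Eed iKO against control under the alternatives tried except with the replicate block, where 1 passed (Nr1d1, adjusted p = 0.0281, over all alternatives 0.0281 to 0.456). Same-numbered libraries deviated from their group means with correlations of 0.039, 0.0684 and 0.193 there and -0.0348, -0.0711 and -0.0294 in the hair cycle, so the numbers are not known to pair libraries. The block also called 1 of the 5 glucocorticoid-responsive genes in Eed iKO, beside 424 of 15008 genes tested. In the hair cycle the replicate block left 1 clock gene (Per3 then had an adjusted p of 0.0537), leaving out a library left 1 to 3, and the thresholds of the methods left 0. Nr1d1 kept its call and direction in all 11 hair cycle alternatives. Over all genes, the Eed iKO count of 4 became 2 without the trend, 424 with the replicate block, 673 with DESeq2, 263 at the thresholds of the methods and 1 to 188 with a library left out (188 without Eed iKO replicate 3). The hair cycle count of 1556 became 842 without the trend, 686 at the thresholds and 590 to 1534 with a library left out. Leaving out a library turned the sign of small changes: in Eed iKO, Arntl (-0.24 to 0.12), Clock (-0.27 to 0.0094) and Cry2 (-0.23 to 0.086), and in the hair cycle, Clock (-0.044 to 0.23) and Cry1 (-0.57 to 0.24). The causes were not tested. TMM scaling changed no call of a clock gene. With 3 libraries per group and unknown depth in the hair cycle, small changes of Per2 and Cry1 could not be detected.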

Other observations

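Glucocorticoids set the phase of peripheral clocks, so 5 genes known to respond to them were listed beside the clock. The values below fall outside the naming rule and were picked after they were seen. Tsc22d3 had 2007, 1765 and 1896 normalized counts in control and 4084, 3765 and 2708 in the libraries labelled Eed iKO (log2 fold change 0.88, SE 0.18, limma adjusted p = 0.099). Fkbp5 had 441, 233 and 580.3 in control and 1179.6, 718 and 740.5 in Eed iKO (log2 fold change 1.13, SE 0.36, limma adjusted p = 0.18). The groups did not overlap for these 2, and Zbtb16, Klf9 and Sgk1 had log2 fold changes of -0.16, -0.25 and 0.15. None of the 5 passed at an adjusted p under 0.05 in limma in either comparison, while 2 had an unadjusted p under 0.05 in Eed iKO, beside 14.7% of all genes, and 0 in the hair cycle, beside 27.3%. On recovered reads of Eed iKO and control, edgeR called 0 of the 5 and DESeq2 called 2, beside 4.48% of all genes. In limma 1 of the 5 was called without Eed iKO replicate 3, beside 188 of 15386 genes tested. In the hair cycle 1 was called without telogen replicate 1, beside 1534 of 13869 genes tested.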
